A study of Mus musculus with 6 samples.

Results

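The Bcl2 family members Bcl2, Bcl2l1, Mcl1, Bak1, Bid, Bad, Bik, Bmf, Bcl2l11 and Bcl2a1b were examined in megakaryocyte-lineage cells with and without Txnip. They are 10 of the 24410 gene symbols in the expression table, were chosen by symbol, and all 10 were present. RNA came from 3 wild-type libraries (WT 1 to WT 3) and 3 Txnip -/- libraries (KO 1 to KO 3), all from C57BL/6 mice aged 5 months. Lineage-negative marrow cells of both genotypes had been grown for 3 days in serum-free medium with 10% fetal bovine serum and 100 ng/mL murine Scf, among other additions, and CD41+ cells were then sorted. The knockout is labelled Txnip -/-, with no Cre, promoter or cell type named. The labels do not say whether libraries came from single or pooled animals, and p-values then measure the spread between these libraries, which may be partly technical. The study asked what Txnip does while megakaryocytes form and shed platelets.

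Bcl2 proteins decide at the outer mitochondrial membrane whether a cell starts apoptosis. Pro-survival members (Bcl2, Bcl-xL from Bcl2l1, Mcl1, A1 from the Bcl2a1 genes) hold the effectors Bak and Bax in check. BH3-only proteins (Bim from Bcl2l11, Bid, Bad, Bik, Bmf) bind the pro-survival members or activate the effectors, and open effector pores release cytochrome c. In megakaryocytes and platelets, Bcl-xL and Mcl1 are known for restraining Bak and Bax, and Bcl-xL keeps platelets alive.

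Txnip read 112, 228 and 143 FPKM (fragments per kilobase of transcript, scaled to the mapped fragments of the library) in the WT libraries. It is listed at 0 for both KO 1 and KO 3, and KO 2 held 0.04, so each library matched its label. Values of a gene are given throughout in the order of libraries 1, 2 and 3. Depth, estimated from the spacing of low values, lay between 14400000 fragments (KO 1) and 25500000 (KO 3), and the estimate for KO 2 rested on 20 genes. Itga2b, the gene of the sorting marker CD41, lay between 83.2 and 152 FPKM. The summed level of 12 megakaryocyte markers, led by Pf4 and Itga2b, was 652 to 1795 FPKM in WT and 684 to 1891 in KO. Granulocyte markers, led by Ctsg and Mpo, summed to 5882 to 7519 in WT and 3904 to 8896 in KO. Mast cell and basophil markers, led by Mcpt8 and Prss34, summed to 1088 to 1629 and 679 to 1480, with Tpsab1 and Mcpt4 below 1 FPKM in every library. Monocyte and macrophage markers, led by Ccr2 and Csf1r, summed to 187 to 296 and 188 to 327. Of 12 erythroid markers, led by Tfrc and Hbb-b1, 5 stayed below 1 FPKM throughout (Hba-a2, Alas2, Ermap, Rhag and Slc4a1). Their sum was 135 to 162 in WT and 111 to 121 in KO. Lymphoid markers, led by Cd79b and Il7r, summed to 11.5 to 18.6 and 14.2 to 16.4, and Cd3e stayed below 1 FPKM. The sorted population therefore held transcripts of several myeloid lineages. In such bulk RNA, fewer cells of a type and less transcript per cell cannot be told apart.

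Mcl1 was the most abundant member and Bik the least. FPKM is scaled by transcript length, so levels of different genes can be set side by side. Averaged over the 6 libraries, Mcl1 stood at 97.3 FPKM, Bak1 at 45.6, Bid at 32.8, Bcl2 at 20.3, Bad at 18.6, Bcl2l11 at 9.24, Bcl2l1 at 9.14, Bcl2a1b at 7.09, Bmf at 2.11 and Bik at 0.54. Mcl1 lay above Bak1, Bid above Bcl2, Bcl2a1b above Bmf and Bmf above Bik with no overlap of ranges. Bak1 and Bid had overlapping ranges, although Bak1 was the higher in 6 of 6 libraries, as Bad was over Bcl2l11. The order was not settled for Bcl2 over Bad (2 of 6 libraries), Bcl2l11 over Bcl2l1 (3 of 6) or Bcl2l1 over Bcl2a1b (4 of 6).

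**Figure D1:**
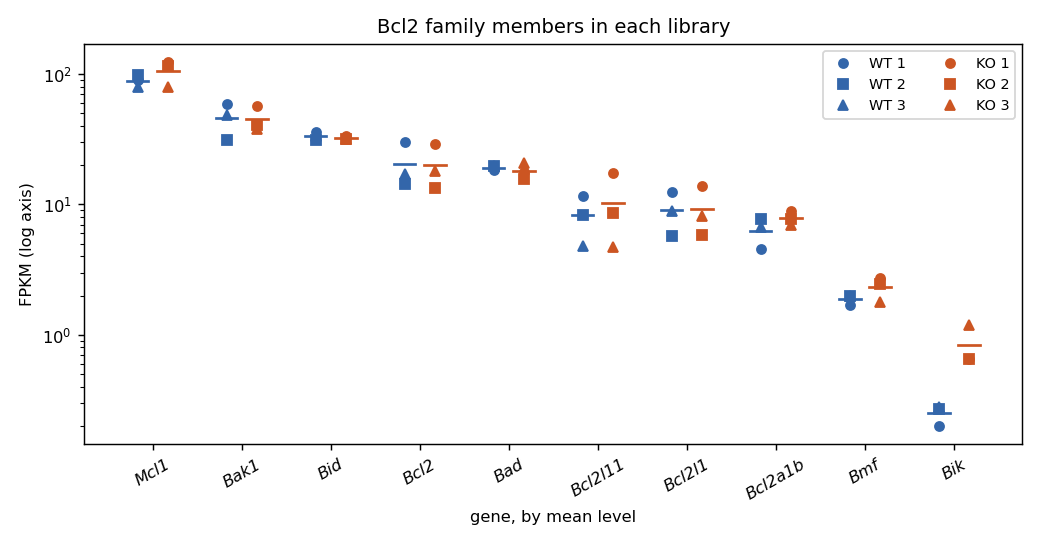
FPKM of the 10 members on a log axis, by library (symbol for the replicate number, blue for WT, orange for KO), with a bar at each group's mean of 3 libraries. WT and KO points overlap for 9 members, and only for Bik, from 0.20 to 0.28 FPKM in WT and from 0.65 to 1.19 in KO, do they not.

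No member passed the test between genotypes. Of the 10, 9 reached 1 FPKM in 3 or more libraries and were tested, and Bik was not. The difference in log2(FPKM + 1), KO minus WT, was tested with limma and Benjamini-Hochberg adjustment over all 11249 tested genes at a threshold of 0.05. Of the 9 members 0 passed, against 0.0178% of all tested genes (2, Txnip included), and 0 passed at an unadjusted p under 0.05, where 0.676% of all genes lay. With the replicate number as a block, 0 of 9 passed at either level, against 0.0267% and 6.93%. The difference was above 0 for 5 of the 9 members, as for 63.4% of all tested genes, and the median was 0.02 against 0.06 for all of them. Rescaling the libraries to a common sum moved the median of all tested genes to 0.22 and turned the small negative differences of Bcl2, Bak1, Bid and Bad to positive ones, and median-of-ratios or quantile scaling turned that of Bcl2l1 to below 0.

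Among the pro-survival genes, Mcl1, whose short-lived protein binds Bim and Bak, read 90.2, 97.8 and 78.7 FPKM in WT against 123, 114 and 79.4 in KO. The first 2 KO libraries were above all WT libraries and KO 3 was not, so the groups overlap. Its difference was 0.23 (SE 0.23; 95% interval −0.29 to 0.75; limma, adjusted p = 1.00) and was 0.44, 0.22 and 0.01 in the 3 pairs of equal number. With the block the interval was −0.11 to 0.56 (limma, adjusted p = 0.806). KO was higher in 3 of 3 pairs for 2 of the 9 members, Mcl1 and Bcl2a1b, as it was for 20.4% of all tested genes.

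Bcl2, the founding pro-survival member, read 29.9, 14.2 and 17.2 FPKM in WT against 29.2, 13.3 and 18.1 in KO. Each KO library lay close to the WT library of its number, while library 1 stood well above the others in both genotypes. The difference was −0.02 (SE 0.35, limma), with an interval of −0.82 to 0.78 that narrowed to −0.33 to 0.30 with the block. Bcl2l1, the gene of Bcl-xL, showed 12.4, 5.70 and 8.95 FPKM in WT against 13.9, 5.84 and 8.12 in KO. Here too the number ordered the libraries more than the genotype did. Its difference was 0.02 (SE 0.36, limma), between −0.80 and 0.84, or −0.32 and 0.36 with the block. The table has 1 value per gene, so splice forms were not separated. This holds for the long and short forms of Bcl2l1 and Mcl1, which differ in what they do to survival, and for those of Bcl2l11.

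Bcl2a1b is 1 of several mouse copies of A1, a pro-survival gene of granulocytes and mast cells. Its copies are so alike that reads can be hard to assign. Printed are the first 120 bases of the coding sequence for the 3 expressed copies. This stretch was chosen for holding the most differences, so the rest of the coding sequence is more alike. The transcripts are from GENCODE M21 on GRCm38, all on chromosome 9. Bcl2a1a lies on the plus strand at chr9:88956900-88962419, Bcl2a1b on the plus strand at chr9:89199209-89207827 and Bcl2a1d on the minus strand at chr9:88723285-88731914. Capitals mark the 7 positions that vary among the copies in this stretch, of 12 in the whole coding sequence of 516 bases.
Bcl2a1a: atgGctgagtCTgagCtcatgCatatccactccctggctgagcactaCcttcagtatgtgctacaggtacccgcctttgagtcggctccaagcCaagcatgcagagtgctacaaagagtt
Bcl2a1b: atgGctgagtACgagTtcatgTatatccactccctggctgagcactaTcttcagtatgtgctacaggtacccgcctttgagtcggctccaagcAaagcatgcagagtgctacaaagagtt
Bcl2a1d: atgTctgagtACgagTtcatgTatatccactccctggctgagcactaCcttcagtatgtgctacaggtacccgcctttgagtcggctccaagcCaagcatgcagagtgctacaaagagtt
Coding identity was 97.9% between Bcl2a1b and Bcl2a1a and 98.8% between Bcl2a1b and Bcl2a1d. Of the 467 windows of 50 bases in Bcl2a1b, 52.7% were identical in Bcl2a1d and 43.0% in Bcl2a1a. A stretch of 50 bases from such a window fits more than 1 copy, but a longer fragment around it may not. The longest identical run was 217 bases with either copy. Untranslated parts and read length were not analysed here.

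Bcl2a1b read 4.58, 7.67 and 6.66 FPKM in WT against 8.97, 7.76 and 6.92 in KO. All KO libraries were above WT 1 and WT 3, but KO 3 was below WT 2. The difference was 0.30 (SE 0.26; 95% interval −0.28 to 0.88; limma, adjusted p = 1.00), and of the pair differences 0.84, 0.02 and 0.05 the first was far larger. Bcl2a1d read 6.33, 6.13 and 3.00 FPKM in WT against 12.1, 3.04 and 3.43 in KO. Bcl2a1a stayed at or below 2.28 FPKM and was listed at 0 in KO 2, and Bcl2a1c was listed at 0 in every library. The sum of Bcl2a1a, Bcl2a1b and Bcl2a1d, which depends less on how reads were shared among these copies of like length, was 11.8, 14.5 and 11.9 FPKM in WT against 22.0, 10.8 and 12.03 in KO. KO 1 stood apart in this sum, while the other 5 libraries lay between 10.8 and 14.5 FPKM. Bcl2a1b made up between 38.8% and 71.9% of it.

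Mcl1 held the largest share of pro-survival transcripts in every library. Over Mcl1, Bcl2, Bcl2l1, Bcl2l2 and the 3 Bcl2a1 copies, the summed level was 154, 143 and 125 FPKM in WT 1 to WT 3 and 198, 158 and 127 in KO 1 to KO 3. Mcl1 accounted for 58.8%, 68.6% and 63.1% of it in WT and 62.0%, 72.7% and 62.7% in KO. Bcl2 gave between 8.46% (KO 2) and 19.5% (WT 1).

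**Figure D2:**
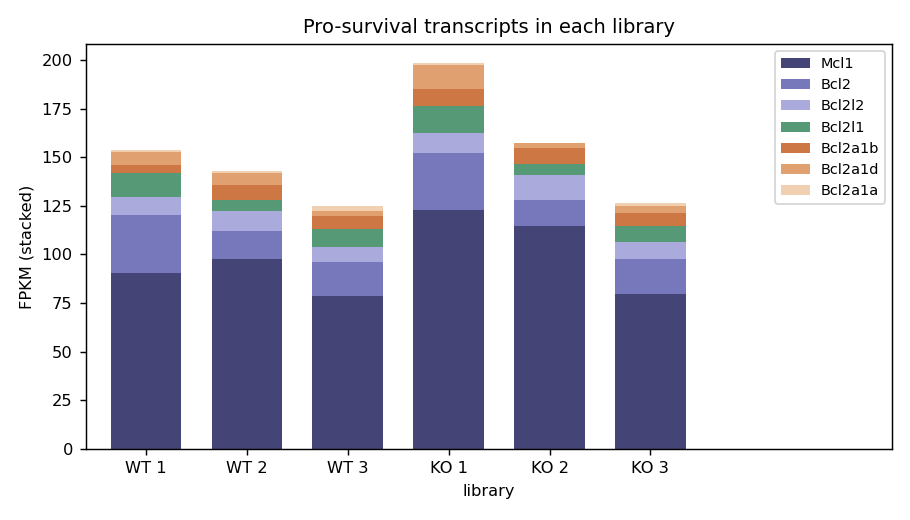
Stacked FPKM of 7 pro-survival genes (colours) in each of the 6 libraries (x axis). The sum runs from 125 in WT 3 to 198 in KO 1, and Mcl1 makes up between 58.8% and 72.7% of each bar.

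Of the effectors, Bak1, whose product forms pores in the mitochondrial membrane, read 58.5, 31.2 and 48.4 FPKM in WT against 57.2, 40.3 and 37.8 in KO. The KO values fell inside the WT range. Its difference was −0.01 (SE 0.28, limma), with an interval of −0.64 to 0.63 and of −0.37 to 0.36 with the block. The pairs went different ways, at −0.03, 0.36 and −0.35. Bax, the other pore-forming effector and no member of the set, read 51.9, 58.3 and 53.2 FPKM in WT against 60.3, 69.0 and 58.3 in KO. Its 3 KO libraries were just above its 3 WT libraries, a separation that 3.32% of all tested genes showed. The Bax difference was 0.20 (SE 0.19; limma, adjusted p = 1.00; 0.817 with the block). Bok, a relative of Bax and Bak, stayed between 0.72 and 2.10 FPKM.

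Among the BH3-only genes, Bid, which links death receptors to mitochondria, had the narrowest range of the members relative to its level. It read 35.6, 31.1 and 33.2 FPKM in WT against 33.6, 31.8 and 31.8 in KO, so that all 6 values fit between 31.1 and 35.6. The difference was −0.04 (SE 0.18, limma), with an interval of −0.46 to 0.38. Bad, which growth factor signalling keeps inactive by phosphorylation, read 18.2, 19.6 and 19.6 FPKM in WT against 17.6, 15.7 and 20.6 in KO. These ranges overlap, and the difference of −0.09 (SE 0.20, limma) had an interval of −0.56 to 0.37. Bmf, a BH3-only protein that associates with the myosin V motor, read 1.70, 1.98 and 1.99 FPKM in WT against 2.71, 2.46 and 1.79 in KO. KO 1 and KO 2 exceeded all WT libraries and KO 3 lay within the WT range, for a difference of 0.19 (SE 0.25, limma; interval −0.38 to 0.76).

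Bcl2l11, the gene of Bim, which binds all pro-survival members, read 11.7, 8.28 and 4.79 FPKM in WT against 17.4, 8.56 and 4.74 in KO. Library 1 was the highest and library 3 the lowest in both genotypes, and only in pair 1 did KO and WT lie visibly apart. The pair differences were 0.54, 0.04 and −0.01. The mean difference was 0.19 (SE 0.45, limma), with an interval of −0.83 to 1.21 and of −0.18 to 0.56 with the block. Set against Mcl1 in the same library, the ratio of Bcl2l11 to Mcl1 FPKM was 0.129, 0.0846 and 0.0609 in WT and 0.142, 0.0748 and 0.0597 in KO. That ratio was also ordered by library number and overlapped between genotypes.

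Bik, a BH3-only protein that sits mainly at the endoplasmic reticulum, was the member whose groups did not overlap. It read 0.20, 0.27 and 0.28 FPKM in WT against 0.65, 0.65 and 1.19 in KO. It averaged 0.25 ± 0.04 in WT against 0.83 ± 0.31 in KO (SD, n = 3 per genotype), a ratio of 3.32. All KO libraries were above all WT libraries, which also held for 2.99% of the 17038 genes above 0 in any library. Because only 1 library reached 1 FPKM, Bik was read from a fit without the filter, where its difference was 0.54 (SE 0.14, interval 0.21 to 0.86, limma, unadjusted p = 0.00644, adjusted p = 1.00). In that fit 1.39% of all genes had an unadjusted p under 0.05 and 0.00587% an adjusted one. With the block the adjusted p was 0.849 (limma), so Bik did not pass either way. Behind these values stood few fragments: taking its transcript of 942 bases and the estimated depths, about 2.9, 3.9 and 4.0 fragments in WT 1 to WT 3 and 6.9, 10.8 and 22.5 in KO 1 to KO 3. The number of fragments limits what can be said of Bik at this depth.

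**Figure D3:**
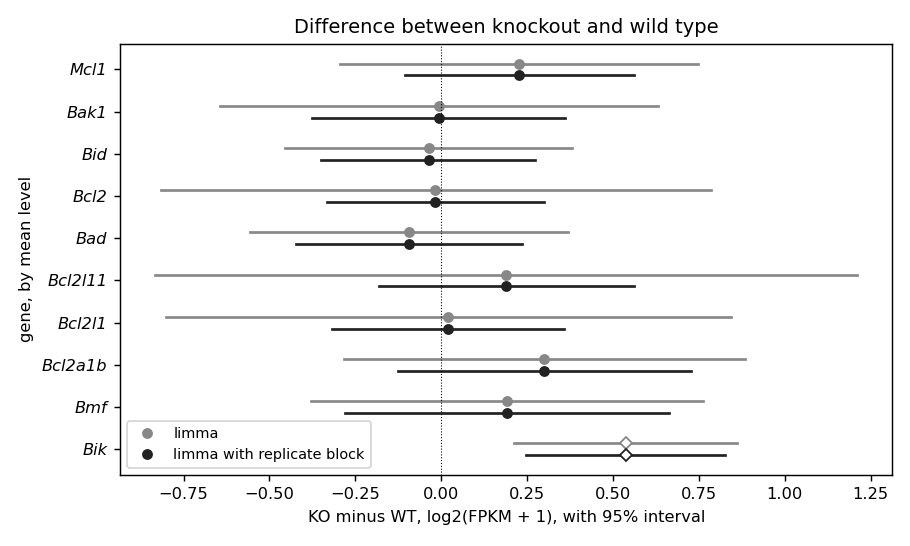
Difference between KO and WT in log2(FPKM + 1) for each member (points) with its 95% interval, not adjusted for the number of genes, from limma without (grey) and with (black) the replicate number as a block; Bik (open diamonds) is from the fit without a filter. The intervals of the 9 tested members contain 0, and that of Bik, from 0.21 to 0.86, does not, although its adjusted p was 1.00.

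Intervals were narrower with the pairing by number, and several members followed the number in the sample titles. What a number stands for is not in the labels. Libraries numbered 3 held Xist (48.1 FPKM in WT and 91.6 in KO) and no transcripts of 4 Y-linked genes, while those numbered 1 and 2 held the reverse, so number 3 and sex cannot be told apart. An F test of the number in the blocked limma fit, added after the values had been seen, called 3 of the 9 members: Bcl2l11 (adjusted p = 0.00301), Bcl2 (0.00446) and Bcl2l1 (0.00633). It called 35.1% of all tested genes as well, so the members' share is near the background. On the log2(FPKM + 1) scale, the differences of libraries 2 and of libraries 3 from libraries 1 were −1.05 and −0.71 for Bcl2, −1.06 and −0.57 for Bcl2l1 and −0.70 and −1.41 for Bcl2l11. The libraries had the same order in both genotypes for 3 of the 9 members, the same 3, against 43.7% of all tested genes. For these 3 both libraries numbered 1 also lay above the other 4, as for 32.4% of all. The F test favours genes that follow the number alike in both genotypes. These shares are therefore no measure for the 3. Bak1 was not called (limma, adjusted p = 0.0535), nor were Mcl1 (0.142), Bad (0.643), Bcl2a1b (0.702), Bid (0.791) and Bmf (0.858).

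The calls of these 3 members needed the libraries numbered 1. Without those, the limma test between numbers 2 and 3 called 0 of the 9 members, against 6.20% of all genes, and 1, Bcl2l11, had an unadjusted p under 0.05, where 19.7% of all genes lay. Bcl2l11 still stood apart there, at 8.28 and 8.56 FPKM in libraries 2 against 4.79 and 4.74 in libraries 3. Without the libraries numbered 2 the test called 5, adding Mcl1 and Bak1, against 35.0% of all genes. Without those numbered 3 it called 4, adding Bak1, against 43.1%. The libraries numbered 1 also differed in marker transcripts. The 12 megakaryocyte markers summed to 652 and 684 FPKM in WT 1 and KO 1 and to between 1035 and 1891 in the other 4. The mast cell and basophil markers summed to 1629 and 1480 there and to between 679 and 1162 elsewhere. The granulocyte markers summed to 5882 and 3904 there, the lowest of each genotype, although KO 2 (4669) lay below WT 1. Sums are weighted to abundant genes. Pf4 alone ran from 465 to 1545 FPKM over the libraries, and Itga2b from 83.2 to 152. Marker genes also differed in direction between genotypes. KO was higher for 11 of 12 tested monocyte and macrophage, 6 of 11 megakaryocyte and 2 of 2 lymphoid markers. It was higher for 3 of 12 granulocyte, 2 of 10 mast cell and basophil and 1 of 7 erythroid markers. Of all tested genes, 63.4% were higher in KO. The part of these markers in the levels of Bcl2, Bcl2l1 and Bcl2l11, or in the differences between genotypes, was not tested.

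**Figure D4:**
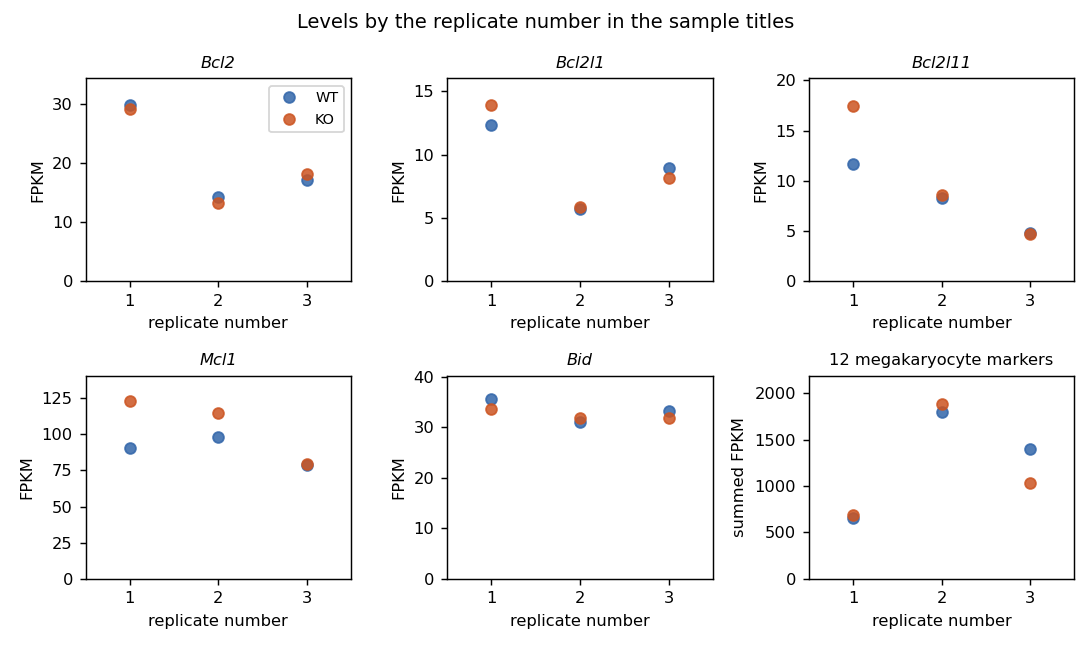
FPKM of 5 members and the summed FPKM of 12 megakaryocyte markers (y axes from 0) by replicate number (x axis), blue for WT and orange for KO. Bcl2, Bcl2l1 and Bcl2l11 are highest at number 1 in both genotypes, Bid stays between 31.1 and 35.6 FPKM, and the marker sum is lowest at number 1, at 652 and 684.

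The promoters of the members were searched for letters bound by factors that are known to regulate this family or are active in blood cells. Of the 10 members, 9 had entries in the RefSeq promoter table (GRCm38.p6), with 15 start sites in all, and the 250 bases before each start were searched on both strands. FOXO factors, which drive Bim when growth factors are withdrawn, bind GTAAACA. It occurred in 1 of the 15 promoters, at a start of Bcl2l11, and in 3.17% of all 32851 promoters of that length. The GATA motif AGATAA, read by the megakaryocyte and erythroid factor Gata1, occurred in 1 of the 15, at a start of Bcl2l1, and in 9.99% of all. CCAAT occurred in 5 of the 15 (Bad, Bcl2l11 and Bmf) and in 33.8% of all, the STAT motif TTCNNNGAA in 0 and in 7.02% of all, and the ETS motif CCGGAAGT in 0 and in 2.88% of all. Printed are the 2 promoters with the FOXO and GATA matches. Both genes followed the library number, as did Bcl2, whose promoter had no match to any motif searched. A link of the motifs to the number was not tested. Capitals mark the matches on either strand, none of which overlap. The first lies at chr2:128125788-128126037 on the plus strand and the second at chr2:152828490-152828739 on the minus strand, both on GRCm38.p6.
Bcl2l11: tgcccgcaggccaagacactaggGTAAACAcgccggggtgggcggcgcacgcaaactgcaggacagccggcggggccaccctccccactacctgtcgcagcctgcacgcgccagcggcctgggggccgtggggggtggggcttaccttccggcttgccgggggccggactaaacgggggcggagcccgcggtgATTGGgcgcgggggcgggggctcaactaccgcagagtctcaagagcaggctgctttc
Bcl2l1: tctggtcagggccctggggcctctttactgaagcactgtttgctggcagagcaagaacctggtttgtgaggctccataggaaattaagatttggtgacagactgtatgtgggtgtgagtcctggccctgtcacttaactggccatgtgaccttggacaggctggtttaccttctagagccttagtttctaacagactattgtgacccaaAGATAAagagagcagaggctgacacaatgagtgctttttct
In the Bcl2l11 promoter GTAAACA starts 227 bases before the start site, and ATTGG, the reverse complement of CCAAT, 57 bases before it. In the Bcl2l1 promoter AGATAA starts 41 bases before the site. A match describes the letters only, and which start was used in these cells was not analysed here.

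Mcl1 shares chromosome 3 with Txnip, the deleted gene. In the RefSeq gene order of GRCm38.p6, 89 annotated genes lie between them, of which 36 could be matched to the table and 26 were tested. Of these, 11 were above 0 in the difference of KO from WT and 15 below, the median was −0.09, and 0 passed in either limma fit. An unadjusted p under 0.05 was reached by 2 of the 26 without the block and by 6 with it, against 0.676% and 6.93% of all tested genes. For 2 of the 26 all KO libraries were below all WT libraries, against 1.03% of all tested genes, and 0 were above. The pair, named after their values were seen, are the histone genes Hist2h2ac (691 ± 187 FPKM in WT and 410 ± 102 in KO) and Hist2h3b (732 ± 78.8 and 609 ± 79.1; SD, n = 3 per genotype), whose near-identical copies make single values uncertain.

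The rest of the Bcl2 family did not pass between genotypes either. Of the 17 other family genes in the table, 10 were tested. Of these, 0 passed in either limma fit, against 0.0178% of all tested genes without the block and 0.0267% with it. An unadjusted p under 0.05 was reached by 0, against 0.676% and 6.93% of all tested genes. With such low shares, counts of 0 are near the background. Pmaip1, the gene of Noxa, which neutralises Mcl1, read 23.8, 18.4 and 12.5 FPKM in WT against 33.0, 20.5 and 13.4 in KO. It was a little higher in KO in 3 of 3 pairs and followed the number in the same order as Bcl2l11 (F test of the number in limma, adjusted p = 0.00567). Bbc3, the gene of the p53 target Puma, read 5.77, 18.1 and 4.77 FPKM in WT against 7.37, 27.9 and 4.66 in KO. Here libraries 2 were the highest and libraries 3 the lowest in both genotypes (adjusted p = 0.000997, same test). Hrk, the remaining BH3-only gene, was listed at 0 in every library.

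Bnip3, a divergent member that acts in mitophagy, had the widest spread of the tested family genes. It read 96.9, 614 and 269 FPKM in WT against 96.1, 474 and 351 in KO. Library 1 was the lowest in both genotypes (F test of the number in limma, adjusted p = 0.000735), opposite to Bcl2 and Bcl2l1. Its relative Bnip3l lay between 49.6 and 89.9 FPKM. The pro-survival Bcl2l2, the gene of Bcl-w, averaged 9.20 ± 1.23 FPKM in WT against 10.8 ± 2.14 in KO, and Bcl2l12 was 16.6 ± 2.81 and 18.0 ± 1.46 (SD, n = 3 per genotype). Bcl2l13, a mitochondrial member, lay between 11.3 and 17.2 FPKM. Of the low genes, Bcl2l14 was at 0.55 to 0.85 FPKM in WT and 0.88 to 1.53 in KO without overlap. All KO libraries were above all WT libraries for 2.99% of the 17038 genes above 0 in any library. Bcl2l14 was not tested for its low level. Bcl2l10, Bcl2l15 and Bnipl stayed at or below 1.25 FPKM.

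Partners and downstream genes of the family were read from lists chosen with earlier results known. Of 18 partners and regulators 17 were tested, of which 8 were higher and 9 lower in KO, and 0 passed. Pim1, a kinase that phosphorylates Bad, read 75.0, 78.1 and 70.2 FPKM in WT against 93.3, 115 and 85.3 in KO. Its KO libraries were all above its WT libraries, as for 3.32% of all tested genes. The Pim1 difference was 0.38 (SE 0.20; limma, adjusted p = 1.00; 0.683 with the block). Pim1, Pim2 and Foxo3 were named for the smallest p of this list. That choice favours groups that do not overlap, so the share of all genes is no measure for Pim1. Pim2, the related kinase, averaged 4.51 ± 1.80 in WT against 3.39 ± 2.08 in KO, and Foxo3, a FOXO factor, 27.3 ± 7.03 and 33.4 ± 10.3 (FPKM, SD, n = 3 per genotype).

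Of 12 apoptosome and caspase genes, all tested, 8 were higher and 4 lower (median 0.04), and 0 passed. Cycs, Casp6 and Endog were named for the smallest p of this list, which favours agreement between pairs. Cycs, the gene of the cytochrome c that the effector pores release, read 61.4, 75.3 and 82.1 FPKM in WT. In KO it read 53.6, 45.0 and 76.0, lower in 3 of 3 pairs, which after that choice is a description only. Its difference was −0.34 (SE 0.25; limma, adjusted p = 1.00; 0.744 with the block). The executioner caspase gene Casp6 was 7.33 ± 2.24 and 10.0 ± 2.64, and the mitochondrial nuclease gene Endog 7.98 ± 0.74 and 10.6 ± 3.90 (FPKM, SD, n = 3 per genotype). Casp6 was the 1 gene of its list with an unadjusted p under 0.05 in the blocked fit, as Pim1 was in the list of partners (limma, adjusted p = 0.683 for both), against 6.93% of all genes.

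Of 8 tested inhibitors of apoptosis 5 were higher and 3 lower (median 0.08), and 0 passed. Birc3, the gene of the ubiquitin ligase cIAP2, averaged 16.9 ± 1.43 in WT against 20.5 ± 4.77 in KO, Naip6 3.70 ± 0.67 and 5.02 ± 2.93, and Naip5, a sensor of bacterial flagellin, 8.65 ± 1.82 and 10.0 ± 2.59 (FPKM, SD, n = 3 per genotype). Of 10 death receptor genes 6 were higher and 4 lower (median 0.06), and 0 passed. Ripk3, the kinase of necroptosis, was 33.7 ± 5.08 and 41.7 ± 4.27, the receptor gene Tnfrsf1a 24.6 ± 6.51 and 29.5 ± 3.63, and its adaptor gene Tradd 13.9 ± 2.20 and 16.6 ± 1.84 (FPKM, SD, n = 3 per genotype). Each of these 3 was higher in KO in 3 of 3 pairs, as 20.4% of all tested genes were. They were named for the smallest p of their list, which favours agreement between pairs. The share of all genes is therefore no measure for them. In each of these 4 lists 0 genes had an unadjusted p under 0.05 without the block, against 0.676% of all tested genes. The counts of higher genes stand beside 63.4% of all tested genes with a difference above 0.

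The genes most like the members across the 6 libraries were sought among 11129 tested genes outside the lists, by Pearson's r of log2(FPKM + 1). For Mcl1 these were Irak2 (r = 0.992), a kinase of interleukin-1 receptor signalling, Osgin1 (0.987), an oxidative stress response gene, and Junb (0.983), an immediate early transcription factor. Junb lay between 58.5 and 113 FPKM, and 96 genes had an r over 0.9 with Mcl1. For Bcl2a1b, the tested member of smallest p, they were Dnajc28 (0.978), Slc6a9 (0.972) and Rnd3 (0.964), and 9 genes had an r over 0.9. Dnajc28 (1.83 to 2.52 FPKM) and Slc6a9 (1.39 to 2.96) were low as well. How many genes would pass 0.9 by chance was not worked out. With 6 libraries that share genotype, number and scaling, such likeness is a description only.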

How the data were processed

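The deposited table held FPKM per gene symbol for 6 mouse libraries, computed by the authors. Per the submitters' processing notes, FastQC, Trimmomatic 0.39, STAR 2.7.0a, RSEM 1.2.31 and build mm9 were used; settings, roles and annotation: not given in the sources used here. Reads of similar genes are shared out by estimation in RSEM. Groups and numbers came from the sample titles.

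The 11249 genes that reached 1 FPKM in 3 or more libraries were tested with limma 3.58.1 in R 4.3.3 (trend, two-sided) on log2(FPKM + 1), which understates changes of low genes, with Benjamini-Hochberg adjustment at 0.05. An exact permutation test of 3 against 3 cannot go below 0.1, and it gave that value for Bik. Deviations from the group means correlated between same-numbered libraries, with r of 0.814, 0.595 and 0.381 across genes, so the numbers were taken as pairs for a blocked fit.

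Depth was estimated from low values of genes with 1 transcript, with GENCODE M21 lengths less an assumed 200 bases, by settings chosen after seeing its output; it is approximate. The library sums of FPKM lay between 715205 (KO 3) and 1131641 (WT 2). The members and lists were chosen with earlier results of these data known. Named genes were Txnip, the members, other family genes, the 3 of smallest p per pathway list, the 2 most abundant per marker list and the 3 most like Mcl1 and the member of smallest p. Alternatives changed the pseudocount, filter, scaling, trend, block and the libraries used. Proteins were not analysed here. A culture component and a marker gene are not reported here.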

Additional observations from a re-analysis of the deposited data

How the results depend on the processing

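Under every alternative run, 0 of the 10 members passed, wherever they could be tested. Of 145 recomputed member differences 18 changed sign. The 145 include settings that changed only the filter, block or trend. These leave a difference at its main value by construction, so no sign could change there. FPKM rescaled to a common sum moved the median of all tested genes from 0.06 to 0.22 and turned Bcl2 (0.15), Bak1 (0.17), Bid (0.14), Bad (0.075), Bnip3 (0.18) and Bnip3l (0.12). Median-of-ratios scaling (median −0.02) turned Bcl2l1 (−0.057), Bcl2a1d (−0.024) and Bcl2l13 (−0.001), and quantile normalization Bcl2l1 (−0.049), Bcl2a1d (−0.03) and Bnip3 (0.15). The FPKM sum was 1131641 in WT 2 and between 715205 and 805730 in the other libraries. Scaling to a common sum therefore lowers WT 2 relative to every other library. The cause was not tested beyond the shift that each scaling makes.

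Leaving out 1 library at a time turned 14 differences in at least 1 case. The ranges were −0.31 to 0.28 for Bcl2, −0.28 to 0.28 for Bcl2l1, −0.26 to 0.19 for Bak1, −0.084 to 0.011 for Bid, −0.25 to 0.59 for Bcl2l11, −0.49 to 0.36 for Bcl2a1d, −0.002 to 0.23 for Bcl2l12, −0.21 to 0.22 for Bok, −0.40 to 0.83 for Bbc3, −0.083 to 0.54 for Pmaip1, −0.042 to 0.24 for Bcl2l13, −0.69 to 0.69 for Bnip3, −0.20 to 0.22 for Bnip3l and −0.11 to 0.53 for Naip6. Mcl1 stayed between 0.11 and 0.42 and Bik between 0.40 and 0.61, while Bcl2a1b ran from 0.12 to 0.44, Bad from −0.19 to −0.008, Bmf from 0.11 to 0.31 and Cycs from −0.55 to −0.18. With a pseudocount of 0.1, Bik's difference was 1.37.

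Of all genes, 1 passed higher and 1 lower. The higher count was 2 with the replicate block and 0 without a filter, paired or not; leaving out 1 library gave 0 to 1 higher (0 without WT 2, WT 3 or KO 3) and 1 to 2 lower (2 without KO 1). The block changed no call of a member or of another gene named here. The count of members that differ between replicate numbers was 3 of 9, and 0 to 5 with a number left out, where the share of all genes moved from 35.1% to between 6.20% and 43.1%. Depth limits the value of Bik.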
